A study of Oreochromis niloticus with 3 samples.

Results

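The genes described here, in the hepatopancreas of Nile tilapia, belong to lipid signalling and lipid transport: 2 ppara loci (a row listed under the symbol ppara, and LOC100697805), rxrgb (LOC100706800), lpin1a (LOC100705181), lpin1b (LOC100703868), acsl5 (LOC100709982), fabp2 (LOC100711056), apoa4b (listed by symbol) and apoba (LOC102079941). They are 9 of the 29605 genes in the count table, and they were taken by name, as the PPAR, RXR, lipin, acyl-CoA synthetase, fatty acid binding and apolipoprotein genes set for description. RNA-Seq was run on juvenile, healthy fish kept in freshwater (0 psu, practical salinity units), at 8 psu or at 16 psu, with 1 library per salinity made from the mixed RNA of 8 fish. Salinity was raised by 4 psu per day from freshwater, and the labels give 5 weeks of rearing after that, while the study's methods give a longer period. All fish received a commercial diet, and the study's methods state that they were fasted before sampling. Each salinity is thus known from 1 pool alone, and differences between salinities could not be set against a spread between replicates.

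The peroxisome proliferator-activated receptors (PPARs) are nuclear receptors that bind fatty acids and act on DNA as dimers with a retinoid X receptor (RXR). In mammalian liver PPAR alpha drives genes of fatty acid uptake and oxidation, and lipin 1 has a place on both sides of this system: it is a phosphatidic acid phosphatase that makes diacylglycerol for triglyceride synthesis, and in mouse liver it also works as a coactivator of PPAR alpha. Acyl-CoA synthetases activate fatty acids, fatty acid binding proteins carry them within the cell, and apolipoproteins B and A-IV are packed with triglyceride into the lipoproteins that leave liver and intestine. Because of an ancient genome duplication, many of these genes have a pair of copies in teleost fish, marked a and b.

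Total counts of the 0, 8 and 16 psu libraries were 14627514, 13628578 and 16112951. After TMM scaling, which sets the library sizes so that most genes show no shift, 1 count was worth 0.0729, 0.0716 and 0.0596 CPM (counts scaled to library size) at 0, 8 and 16 psu. The comparisons were restricted to the 16573 genes that reached a count of 10 somewhere in the 3 libraries, and all 9 genes did. The labels name the tissue as hepatopancreas and the cell type as histiocytes. The 10 hepatocyte marker loci summed to 82979, 85757 and 84427 CPM at 0, 8 and 16 psu and the 4 exocrine pancreas loci to 9613, 13030 and 12929 CPM, while the 7 macrophage loci, chosen after values had been seen, summed to 108, 161 and 132 CPM. None of these loci was at 0 in any library. Of the 10 hepatocyte loci, fabp10a alone was past 2-fold, with 13085, 5368 and 4513 CPM. At 8 psu and at 16 psu against 0 psu, 7 and 8 of the 10 were higher. In such bulk tissue, fewer cells of a type and less RNA per cell cannot be told apart.

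A gene was taken as different when the fold change between 2 libraries, on CPM plus 0.5, was above 2 or below 0.5 (a log2 fold change past 1 in either direction). At 8 psu against 0 psu, 8 of the 9 genes were lower and 1 was higher, and 6 were more than 2-fold lower: the ppara symbol row, rxrgb, lpin1a, acsl5, fabp2 and apoa4b. None was more than 2-fold higher. Over all genes kept, 5.41% were more than 2-fold lower and 4.42% more than 2-fold higher in that comparison. The median log2 fold change of the 9 genes was -1.44, against 0.00 for all genes kept.

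The 6 genes named above were again more than 2-fold lower at 16 psu against 0 psu, 7 of 9 were lower in all and 2 were higher, and none was more than 2-fold higher. The background was 5.27% more than 2-fold lower and 5.79% more than 2-fold higher. The median of the 9 genes was -1.64, against 0.01 for all genes. Both comparisons use the same 0 psu library, so the second is no repeat of the first. The genes were also chosen with earlier results of these libraries known, and the counts describe them without a test. With total counts in place of TMM, 992 genes were more than 2-fold higher and 704 lower at 8 psu against 0 psu (733 and 897 with TMM). The corresponding numbers for 16 psu against 0 psu were 1244 and 666 with total counts (960 and 874 with TMM). With that scaling the median of all genes was 0.12 and 0.14 on the log2 scale (0.00 and 0.01 with TMM). Of the 9 genes, 6 and 7 were then past 2-fold.

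In the comparison of 16 psu against 8 psu, which does not use the 0 psu library, 1 of the 9 genes was more than 2-fold different: lpin1b, which was higher. Over all genes 3.54% were more than 2-fold higher and 2.14% more than 2-fold lower. Of the other 8 genes, 1 was higher, 5 were lower and 2 had no read in either library. The median of the 9 genes was -0.10, against 0.00 for all genes kept.

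**Figure D1:**
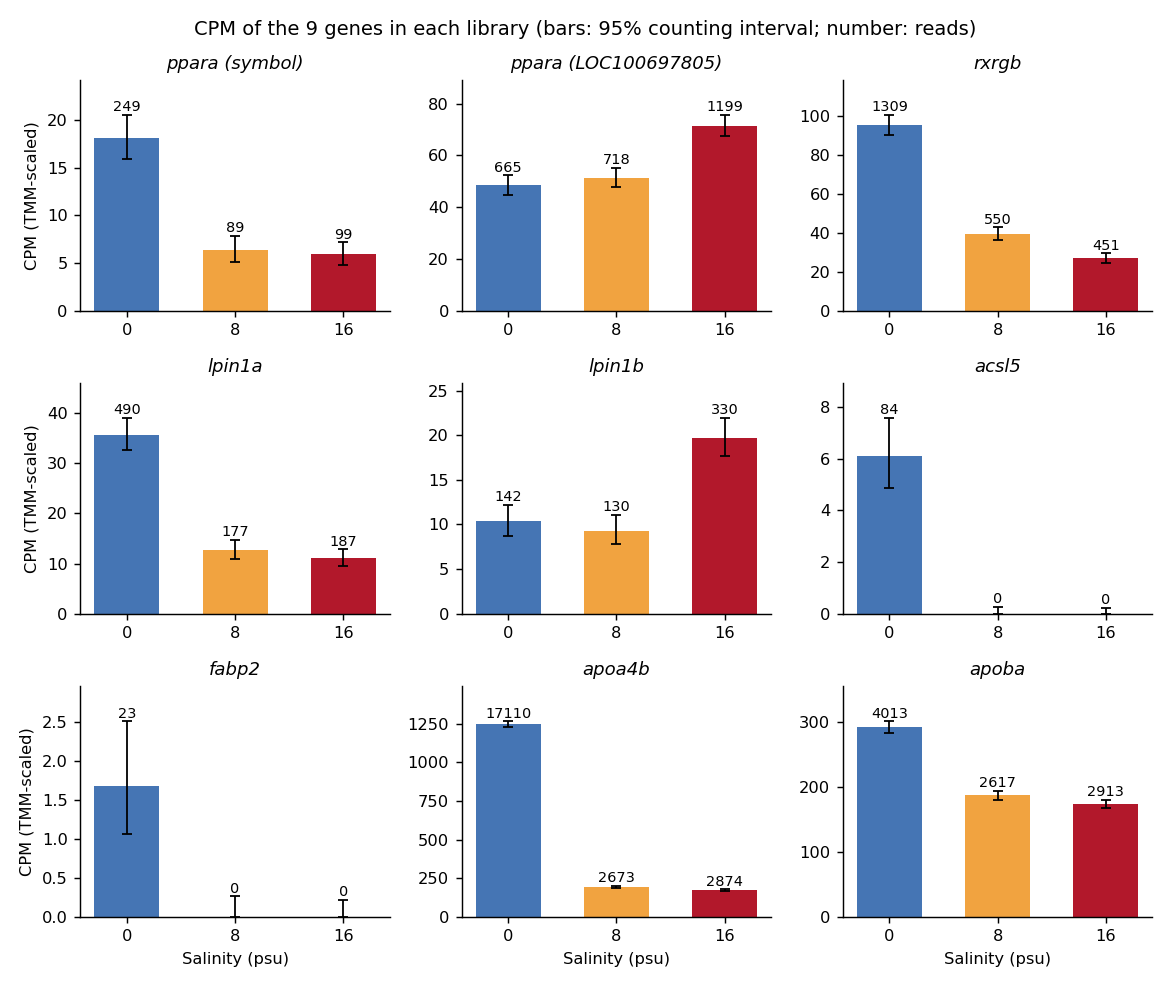
TMM-scaled CPM of each of the 9 genes (vertical axes, each starting at 0 and with its own range) in the library of each salinity (horizontal axes, psu). Bars are the level in 1 pooled library, error bars are exact 95% counting intervals, and the numbers are read counts. The ppara symbol row, rxrgb, lpin1a, acsl5, fabp2, apoa4b and apoba had their highest level at 0 psu, while LOC100697805 and lpin1b had theirs at 16 psu.

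The 2 ppara loci had different patterns over the 3 libraries. The row listed as ppara had 249, 89 and 99 counts at 0, 8 and 16 psu, or 18.2, 6.37 and 5.90 CPM. Without the added 0.5 CPM, its level was 2.85-fold lower at 8 psu and 3.08-fold lower at 16 psu than at 0 psu. The log2 fold changes, which include the added 0.5 CPM, were -1.44 and -1.54. The 95% counting intervals, which are exact, use no added 0.5 and cover counting error only, were -1.88 to -1.16 and -1.97 to -1.28. Between 16 psu and 8 psu the log2 fold change was -0.10 with an interval of -0.54 to 0.32, so no difference was detectable at this depth.

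LOC100697805, to which the RefSeq gene table gives the symbol ppara, had 665, 718 and 1199 counts at 0, 8 and 16 psu (48.5, 51.4 and 71.5 CPM). The 16 psu library was the high one. The log2 fold change was 0.08 at 8 psu against 0 psu (interval -0.07 to 0.24), 0.56 at 16 psu against 0 psu (0.42 to 0.70) and 0.47 at 16 psu against 8 psu (0.34 to 0.61). No value reached 2-fold, and the last pair lay outside counting error. The gene table also has a gene pparab, whose own number has no row in the count table, and what the ppara row is beyond its symbol was not settled here.

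Read as a ratio within each library, which does not depend on the scaling, the ppara row had 0.374 reads for each read of LOC100697805 at 0 psu, 0.124 at 8 psu and 0.0826 at 16 psu. The ratio at 8 psu was 0.331 times that at 0 psu (95% counting interval 0.251 to 0.434), and at 16 psu it was 0.220 times (0.170 to 0.285). At 16 psu it was 0.666 times the ratio at 8 psu (0.488 to 0.911). How reads matching several genes were counted is not given in the sources used here, so reads of close copies could have been shared between such loci.

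The retinoid X receptor gene rxrgb had 1309, 550 and 451 counts at 0, 8 and 16 psu (95.4, 39.4 and 26.9 CPM), so its level was lowest at 16 psu. The log2 fold change was -1.27 at 8 psu against 0 psu (-1.42 to -1.13) and -1.81 at 16 psu against 0 psu (-1.98 to -1.67). Between 16 psu and 8 psu it was -0.54 (-0.73 to -0.37), less than 2-fold but past counting error.

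The receptor list held 4 further loci, and none was past 2-fold in any comparison. The PPAR gamma gene pparg, known in mammals as the receptor of adipocytes, had 357, 620 and 638 counts at 0, 8 and 16 psu (log2 fold changes of 0.76 and 0.54 at 8 and 16 psu against 0 psu). The PPAR delta gene ppardb had 449, 640 and 608 counts (0.48 and 0.15). Of the other RXR genes, rxrbb had 533, 555 and 566 counts (0.03 and -0.20) and rxraa had 283, 204 and 221 (-0.48 and -0.63). Over the 7 receptor loci the median was 0.03 at 8 psu and -0.20 at 16 psu against 0 psu. Without the ppara loci and rxrgb, the medians of the 4 further loci were 0.26 and -0.03. The lower levels of the ppara row and rxrgb were thus not shared by the other receptor loci at that size.

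Coregulators are the proteins that receptors recruit to switch transcription on or off. The list of these, with 19 loci kept, also held the nuclear receptor genes hnf4a, hnf4g, nr1h3 and nr1h4. At 8 psu against 0 psu nr1h3 was higher (0.25), and hnf4a, hnf4g and nr1h4 were lower (-0.33, -0.78 and -0.68). Of all 19 loci, none was past 2-fold in that comparison, with 13 higher, 6 lower and a median of 0.18. Of all genes kept, 5.27% were more than 2-fold lower at 16 psu against 0 psu. In that comparison 10 of the 19 loci were higher and 9 lower (median 0.02), and 1 was more than 2-fold lower. This was ncor1, a corepressor of nuclear receptors, with 1943, 1370 and 1034 counts at 0, 8 and 16 psu and log2 fold changes of -0.53 at 8 psu and -1.19 at 16 psu against 0 psu. None was past 2-fold at 16 psu against 8 psu.

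**Figure D2:**
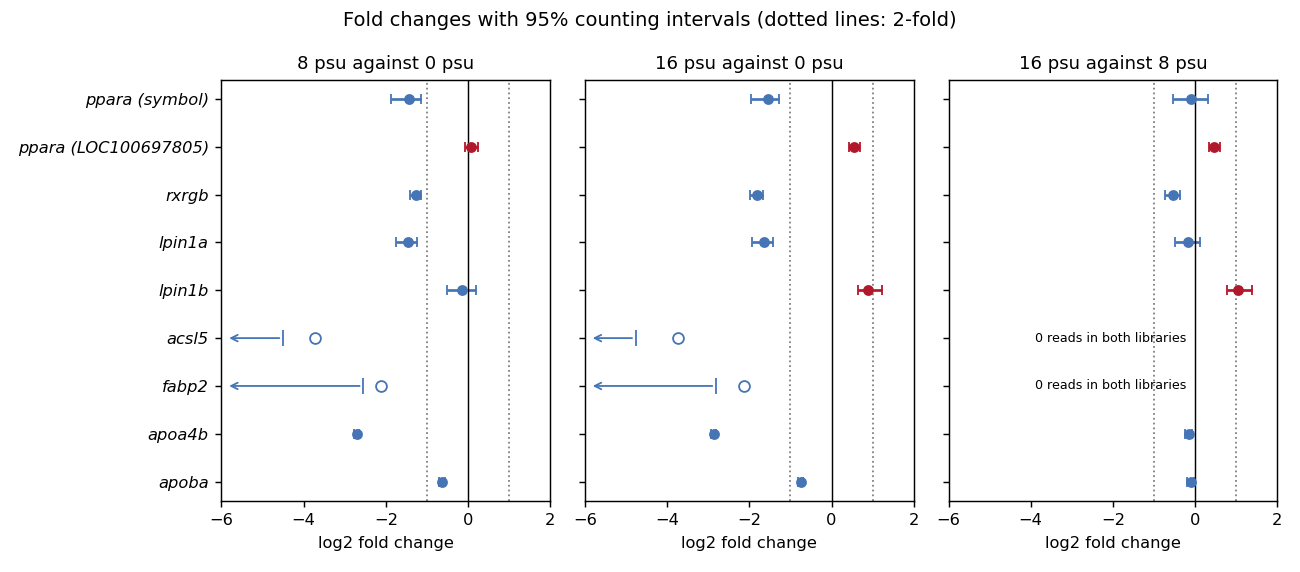
Log2 fold changes of the 9 genes (horizontal axes) in the 3 comparisons, with exact 95% counting intervals and dotted lines at 2-fold. Open circles are values against a library with 0 reads, for which only the end of the interval nearest to 0 and an arrow are drawn. The same 6 genes lie left of the lower line at 8 psu and at 16 psu against 0 psu, and lpin1b alone lies past a line at 16 psu against 8 psu.

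The 2 lipin 1 genes also differed in pattern. For lpin1a there were 490, 177 and 187 counts at 0, 8 and 16 psu (35.7, 12.7 and 11.2 CPM), so that the 0 psu library was high and both others were low. The log2 fold changes were -1.46 at 8 psu (-1.75 to -1.24) and -1.64 at 16 psu against 0 psu (-1.93 to -1.43), and -0.18 at 16 psu against 8 psu, with an interval of -0.49 to 0.12 that includes 0.

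For lpin1b there were 142, 130 and 330 counts at 0, 8 and 16 psu (10.4, 9.31 and 19.7 CPM), and here the 16 psu library was the high one. The log2 fold change was -0.15 at 8 psu against 0 psu (-0.51 to 0.20), 0.89 at 16 psu against 0 psu (0.64 to 1.22) and 1.04 at 16 psu against 8 psu (0.78 to 1.38). The call of more than 2-fold at 16 psu against 8 psu is close to the limit, and it was lost with an added 2 CPM in place of 0.5 CPM (0.94). With total counts the value at 16 psu against 0 psu was 1.04, past 2-fold.

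Of the reads of the lipin 1 pair, lpin1b took 22.5% at 0 psu, 42.3% at 8 psu and 63.8% at 16 psu. The ratio of lpin1b to lpin1a reads was 0.290, 0.734 and 1.76 at 0, 8 and 16 psu. It was 2.53 times as high at 8 psu as at 0 psu (95% counting interval 1.87 to 3.43), 6.09 times as high at 16 psu as at 0 psu (4.66 to 7.96) and 2.40 times as high at 16 psu as at 8 psu (1.78 to 3.24). Which copy had more reads thus differed between the 16 psu library and the others.

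In mammals lipin 1 is also abundant in skeletal muscle, and most muscle markers were high in the 16 psu library. The 10 skeletal muscle marker loci summed to 18.3, 6.94 and 117 CPM at 0, 8 and 16 psu, and none was at 0 in any library. Of the 10, 7 were more than 2-fold higher at 16 psu against 0 psu and 7 at 16 psu against 8 psu (5.79% and 3.54% of all genes kept). The skeletal actin gene acta1b, for example, had 62, 17 and 724 counts at 0, 8 and 16 psu. At 16 psu against 0 psu 2 of the 10 were lower. These were atp2a1, with 13, 3 and 3 counts and more than 2-fold lower (-1.09), and tpm2 (-0.20). The part of muscle RNA in the lpin1b value was not tested.

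**Figure D3:**
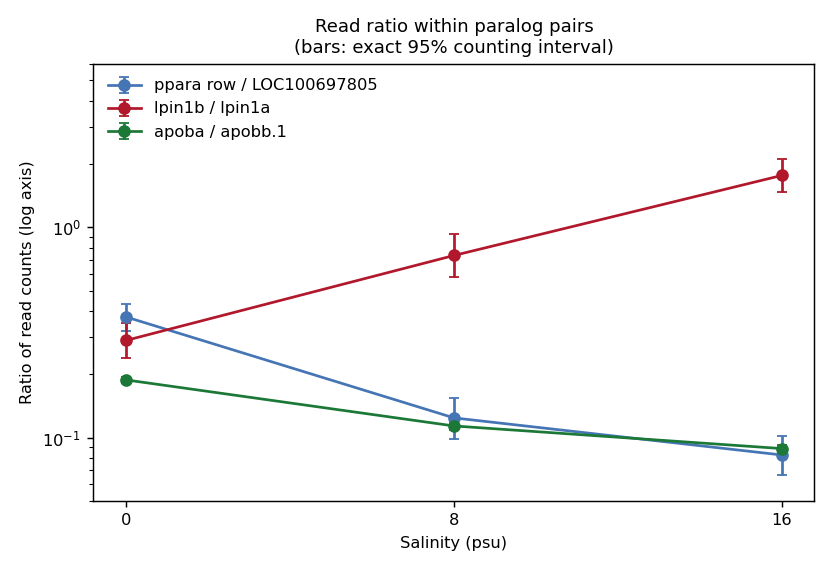
Ratio of read counts within 3 gene pairs (vertical axis, log scale) at 0, 8 and 16 psu (horizontal axis), with exact 95% counting intervals. The ratio of lpin1b to lpin1a reads was 0.290, 0.734 and 1.76, while that of the ppara row to LOC100697805 was 0.374, 0.124 and 0.0826 and that of apoba to apobb.1 was 0.188, 0.114 and 0.0886.

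In the list of lipins and other phosphatidic acid phosphatases, 8 loci were kept, and lpin1a and lpin1b alone were past 2-fold in any comparison. The list also held cnep1r1, a regulatory subunit and not itself such an enzyme (-0.52 and -0.17 at 8 and 16 psu against 0 psu). Of the 8, 7 were lower at 8 psu and 7 at 16 psu against 0 psu, with medians of -0.28 and -0.43 (6 and 6 lower with total counts). The locus with the most counts, lpin2, whose product has the same enzyme activity as lipin 1, had 1619, 1194 and 1717 counts at 0, 8 and 16 psu (log2 fold changes of -0.46 and -0.20 at 8 and 16 psu against 0 psu).

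Reads of acsl5 were found at 0 psu alone. This gene, whose product activates long-chain fatty acids and is known in mammals from intestine and liver, had 84 counts (6.12 CPM) at 0 psu and 0 counts at 8 psu and at 16 psu. A count of 0 allows up to 3 counts, which is 0.215 CPM at 8 psu and 0.179 CPM at 16 psu. Set against that limit, the level was at least 28.5-fold lower at 8 psu and at least 34.2-fold lower at 16 psu than at 0 psu. These bounds leave out the counting error of the 84 reads. The exact intervals, which include it, ended at -4.50 at 8 psu and -4.77 at 16 psu on the log2 scale.

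The same held for fabp2, the fatty acid binding protein of the enterocyte (the absorptive cell of the intestine). It had 23 counts (1.68 CPM) at 0 psu and 0 at 8 psu and at 16 psu. Its level at 0 psu was 7.81-fold the same floor at 8 psu and 9.37-fold at 16 psu. The exact intervals, again the wider measure, ended at -2.55 and -2.81 on the log2 scale. In both comparisons with 0 psu the fitted log2 fold changes were -3.73 for acsl5 and -2.12 for fabp2. Both values are set by the added 0.5 CPM, and they enter the counts and medians of the 9 genes and of the gene lists. With an added 2 CPM fabp2 was no longer past 2-fold (-0.88).

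Other genes, some of them known from the gut, also had reads at 0 psu alone. A search made after these values were seen found 22 genes with at least 20 counts at 0 psu and none at 8 and 16 psu, of which 10 had a symbol, acsl5 and fabp2 included. The other 8 with a symbol were pepsin, the protease of the stomach, with 609 counts, tmprss15, the enteropeptidase of the upper intestine, with 216, cmlc1 with 57, ephb6 with 46, noxo1b with 31, cldn18, a tight junction protein of the stomach, with 31, slc15a1b, an intestinal peptide transporter, with 23, and alp3 with 21. The same search gave 1 gene for the 8 psu library and 10 for the 16 psu library.

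The 12 enterocyte marker loci summed to 49.0, 29.1 and 22.9 CPM at 0, 8 and 16 psu, of which 7 were kept. Of the 12, 4 were at 0 at 0 psu, 6 at 8 psu and 5 at 16 psu. The intestinal alkaline phosphatase alpi.1 and the meprin mep1a had no read in any library, the meprin mep1b had 48, 0 and 3 counts and mogat2, a monoacylglycerol acyltransferase of fat absorption, had 366, 176 and 96. The last alone made up 26.7, 12.6 and 5.73 CPM of the sums. In contrast, the cadherin cdh17 had 179, 162 and 209 counts, mep1bb had 19, 31 and 41 and the aminopeptidase anpepa had 15, 24 and 24. Whether gut tissue in the 0 psu pool had a part in the acsl5 and fabp2 values was not tested.

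Most other acyl-CoA synthetases and fatty acid transporters were lower at 8 psu against 0 psu. Of 14 loci kept, acsl5 included, 13 were lower, with a median of -0.61 against 0.00 for all genes. Of these 2 alone were past 2-fold, acsl5 and acsl4a, beside 5.41% of all genes kept that were more than 2-fold lower. Of the 14 loci, 12 were lower at 16 psu against 0 psu, with a median of -0.14, and with total counts this was 7. Without acsl5, 12 of 13 were lower at 8 psu (median -0.58) and 11 at 16 psu (median -0.11). Relative to 8 psu, 11 of the 14 were higher at 16 psu and none was past 2-fold (median 0.32).

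In that list acsl4a, whose product prefers arachidonic acid, had 1407, 669 and 1539 counts at 0, 8 and 16 psu, so that the 8 psu library was low (log2 fold changes of -1.09 at 8 psu and -0.16 at 16 psu against 0 psu). With total counts it was not past 2-fold at 8 psu. The locus with the most counts was acsf2, a mitochondrial acyl-CoA synthetase, with 2004, 1362 and 1453 counts (-0.58 and -0.75).

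The list of fatty acid binding proteins also held dbi and acbd5a, genes of acyl-CoA binding proteins. Of its 8 loci kept, 7 were lower at 8 psu and 7 at 16 psu against 0 psu, with medians of -1.13 and -0.98. Without fabp2 the medians were -0.97 and -0.60. The 1 higher locus was acbd5a (0.32 and 0.11), and dbi was lower at both salinities. In each of these comparisons 4 were more than 2-fold lower, under TMM (5.41% and 5.27% of all genes kept) and under total counts. They included the liver form fabp10a, with 179465, 74983 and 75667 counts at 0, 8 and 16 psu (log2 fold changes of -1.29 and -1.54 at 8 and 16 psu against 0 psu). The heart-type form fabp3 had 25025, 10439 and 11895 counts (-1.29 and -1.36). The fourth was fabp4b, with 22, 1 and 3 counts. Unlike fabp2, the genes fabp10a and fabp3 had at least 10439 reads in every library.

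**Figure D4:**
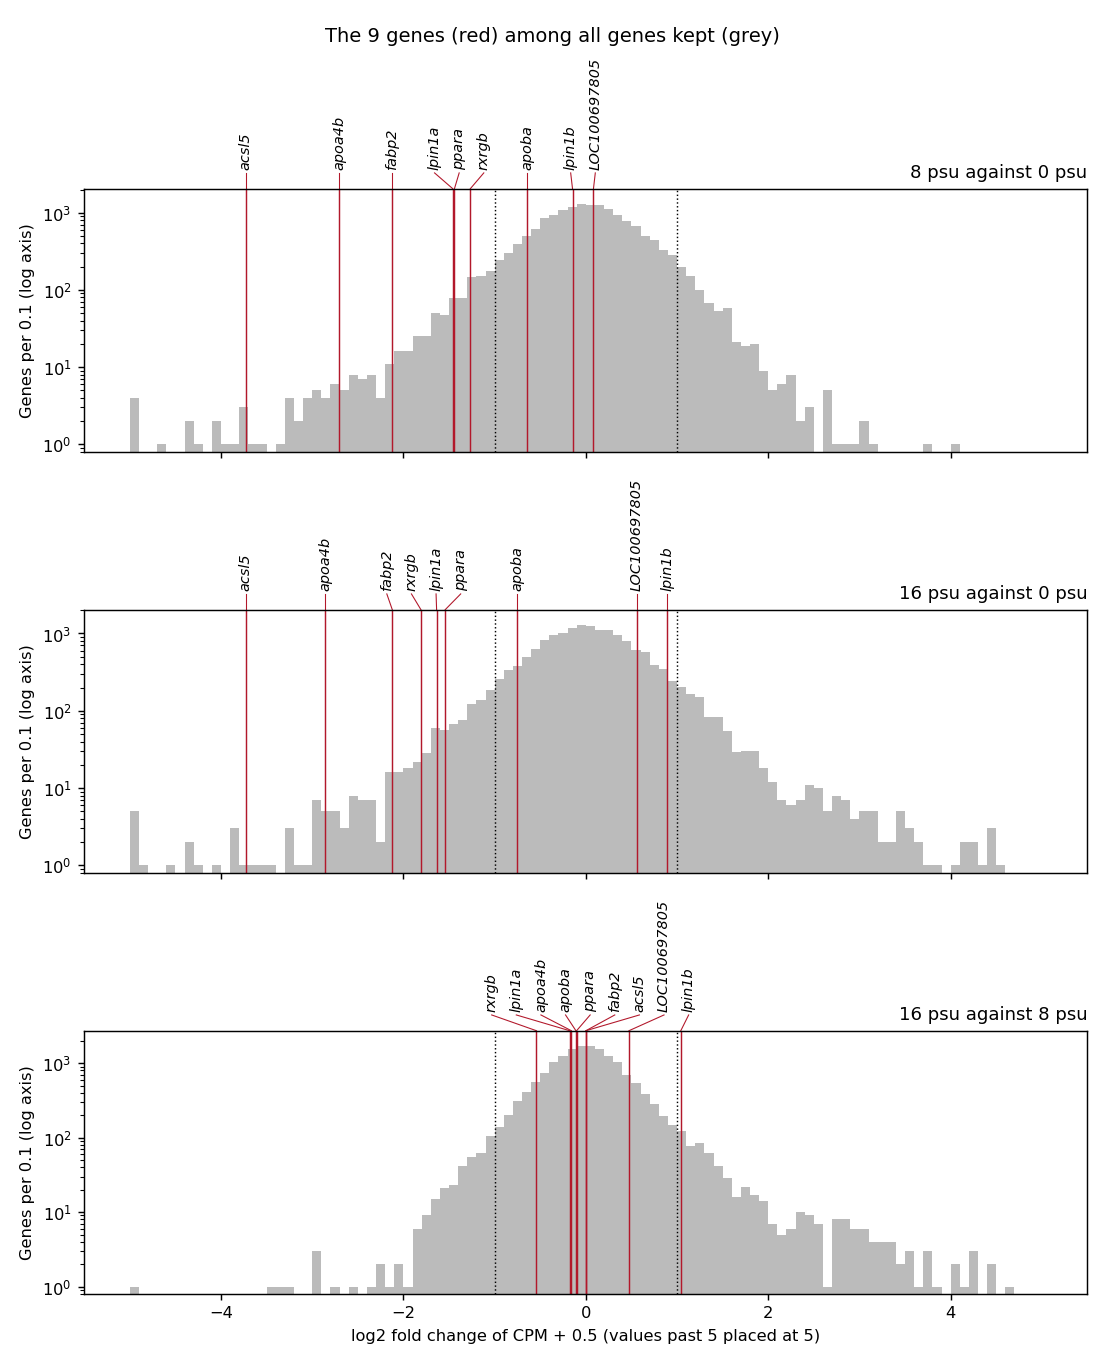
Number of genes per 0.1 of log2 fold change (vertical axes, log scale) over the 16573 genes kept (grey), with the values of the 9 genes as red lines and dotted lines at 2-fold. At 8 psu and at 16 psu against 0 psu, 6 of the 9 lines lie left of the lower dotted line, where 5.41% and 5.27% of all genes lie. At 16 psu against 8 psu the line of lpin1b alone lies past a dotted line, and those of acsl5 and fabp2 stand at 0 because neither had a read in these libraries.

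The apolipoprotein A-IV gene apoa4b had the most reads of the 9 genes at 0 psu. It had 17110, 2673 and 2874 counts at 0, 8 and 16 psu (1248, 191 and 171 CPM), and the 0 psu library stood far above the others. Without the added 0.5 CPM, the level was 6.52-fold lower at 8 psu and 7.28-fold lower at 16 psu than at 0 psu. The log2 fold changes with it were -2.70 (interval -2.76 to -2.65) and -2.86 (-2.92 to -2.81). Of all genes kept, 0.253% had a lower fold change at 8 psu against 0 psu and 0.187% at 16 psu against 0 psu. Between 16 psu and 8 psu the log2 fold change was -0.16 (-0.24 to -0.08).

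Together the 9 genes had 24085 reads in the 0 psu library, 6954 in the 8 psu library and 8053 in the 16 psu library, and most of this difference was apoa4b. Without it the sums were 6975, 4281 and 5179 reads. Its copy apoa4a had 83, 0 and 3 counts at 0, 8 and 16 psu, so that both apoa4 copies were highest in the 0 psu library. Apolipoprotein A-IV is made in mammals above all by enterocytes, and the gut marker sums given above apply to these values too. Their part in the apoa4b value was not tested.

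Apolipoprotein B is the backbone protein of very low density lipoproteins and chylomicrons. Its copy apoba had 4013, 2617 and 2913 counts at 0, 8 and 16 psu (293, 187 and 174 CPM). The log2 fold change was -0.64 at 8 psu (-0.71 to -0.57) and -0.75 at 16 psu against 0 psu (-0.82 to -0.68), less than 2-fold in both cases. At 16 psu against 8 psu it was -0.11 (-0.19 to -0.03).

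The second copy, apobb.1, had 21359, 23049 and 32895 counts at 0, 8 and 16 psu, with log2 fold changes of 0.08 at 8 psu and 0.33 at 16 psu against 0 psu. For each apobb.1 read there were 0.188 apoba reads at 0 psu, 0.114 at 8 psu and 0.0886 at 16 psu. The ratio at 8 psu was 0.604 times that at 0 psu (95% counting interval 0.573 to 0.637), and at 16 psu it was 0.471 times (0.448 to 0.496). In the apolipoprotein B pair, as in the ppara and lipin 1 pairs, the share of one copy differed between libraries by more than counting error.

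The apolipoprotein list, with 12 loci kept, also held apool and apoob, whose products are mitochondrial proteins. Of the 12, 10 were lower at 8 psu against 0 psu (median -0.33, 7 lower with total counts). At 16 psu against 0 psu 7 were lower (median -0.18). Without apoa4b and apoba, 8 of 10 loci were lower at 8 psu against 0 psu (median -0.14). At 16 psu against 0 psu 5 of these were then lower and 5 higher (median -0.01). Past 2-fold were apoa4b and apoa4a, lower at both salinities, and apoea, with 52, 132 and 61 counts, which was higher at 8 psu against 0 psu by 1.21 on the log2 scale and lower at 16 psu against 8 psu (-1.27). The apolipoprotein E copy apoeb, which carries lipoproteins to their receptors, had 53340, 31034 and 117018 counts at 0, 8 and 16 psu, and was more than 2-fold higher at 16 psu against 8 psu (1.65). The locus with the most counts over the 3 libraries, apo14kda, had 292272, 284296 and 287357 counts and was not past 2-fold.

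Genes that load, cut or take up lipoproteins were followed in a list of 24 loci. At 8 psu against 0 psu, beside 5.41% of all genes kept, 3 were more than 2-fold lower and none higher. These were lipg, endothelial lipase, with 2273, 352 and 1126 counts at 0, 8 and 16 psu (log2 fold changes of -2.69 and -1.30 at 8 and 16 psu against 0 psu), ldlrb, a copy of the low density lipoprotein receptor, with 2294, 483 and 1486 (-2.26 and -0.91), and lpl, lipoprotein lipase, with 3152, 1434 and 4907 (-1.16 and 0.35). All 3 were more than 2-fold higher at 16 psu against 8 psu (1.40, 1.35 and 1.51) and had their lowest level at 8 psu. The gene lrpap1, a chaperone of lipoprotein receptors, was more than 2-fold higher at 16 psu against 0 psu (82, 109 and 243 counts, 1.21). The medians of the list were -0.13 at 8 psu and 0.02 at 16 psu against 0 psu, and mttp, which loads triglyceride onto apolipoprotein B, had 1119, 766 and 1332 counts.

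The list of genes driven by PPAR alpha in mammals held 35 loci kept, with small shifts. Of them 22 were lower at 8 psu and 27 at 16 psu against 0 psu (19 and 20 with total counts), with medians of -0.16 and -0.22. Of all genes kept, 5.41% and 5.27% were more than 2-fold lower in these comparisons (704 and 666 genes with total counts). In each comparison 3 of the 35 loci were more than 2-fold lower and none higher, and with total counts 1. At 8 psu these were scdb, a stearoyl-CoA desaturase, with 197, 70 and 0 counts at 0, 8 and 16 psu, decr1, an enzyme of the oxidation of unsaturated fatty acids, with 2462, 1198 and 1613 (-1.06), and acaa2, a mitochondrial thiolase, with 593, 291 and 490 (-1.04). Those at 16 psu against 0 psu included scdb and abcd2, a peroxisomal transporter, with 31, 21 and 14 counts. The desaturase scd, with the most counts in the list, had 232694, 167120 and 172372 counts (-0.50 and -0.72).

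**Figure D5:**
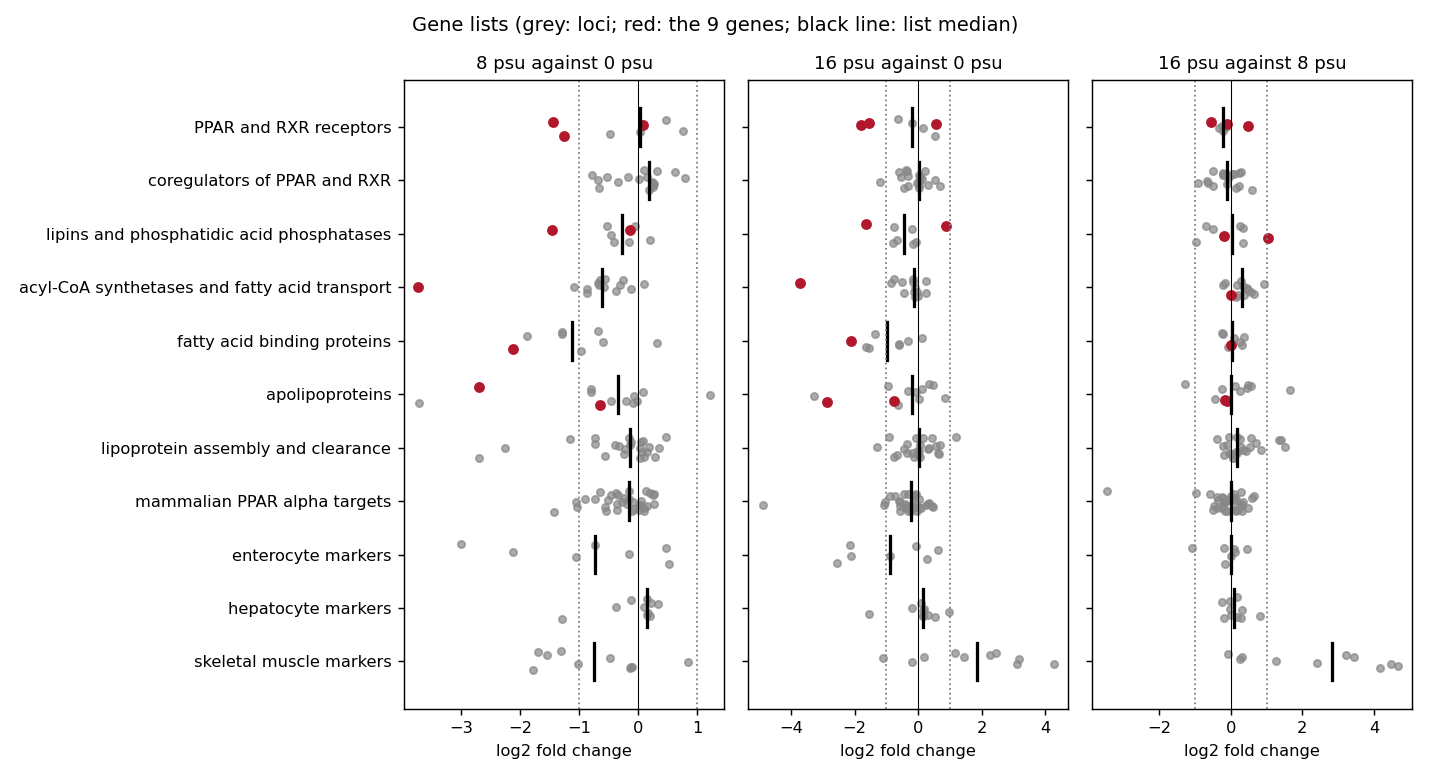
Log2 fold changes (horizontal axes) of the loci of 11 gene lists (grey points) with the 9 genes in red, list medians as black lines and dotted lines at 2-fold. The list of fatty acid binding proteins had the lowest median of the pathway lists at 8 psu and at 16 psu against 0 psu. These medians, -1.13 and -0.98, include fabp2, dbi and acbd5a. Of the 10 skeletal muscle markers, 8 lay to the right of 0 at 16 psu against 0 psu and 9 at 16 psu against 8 psu.

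Finally, for each of the 9 genes the gene with a symbol whose pair of log2 fold changes (8 psu and 16 psu against 0 psu) lay nearest was sought among 6292 genes with at least 100 counts in 1 library. These distances describe 3 libraries and no more. The nearest gene was ndufa4a for the ppara row (distance 0.014 on the log2 scale), castor2 for LOC100697805 (0.011), miga1 for rxrgb (0.095), rps25 for lpin1a (0.041), manf for lpin1b (0.027) and prune for apoba (0.013). The gene apoa4b had no such close neighbour, the nearest being dio3b at 0.37, with 276, 28 and 44 counts at 0, 8 and 16 psu. For acsl5 and fabp2 the nearest were mt2 (0.54) and cyp27b1 (0.072), but their positions depend on the added 0.5 CPM.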

How the data were processed

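The authors isolated poly(A) RNA from pools of 8 fish, sequenced single-end Ion Proton libraries, and used FAST-QC for read quality and MapSplice for mapping, with Orenil1.1 as the genome. The submitters' processing notes also name HTSeq. They deposited 1 table of raw read counts per gene, not normalized, with 3 library columns. Strand and the handling of reads matching several genes are not given in the sources used here.

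Library sizes were scaled by TMM (edgeR 4.0.16, R 4.3.3), which gave effective sizes of 13.7, 14.0 and 16.8M counts at 0, 8 and 16 psu. The rest was done in Python 3.11.15 (numpy 2.4.6; pandas 2.3.3 for tables, scipy 1.17.1 for intervals, matplotlib 3.10.9 for drawing), and the scripts were tested on simulated data. Fold changes used log2(CPM + 0.5), which understates differences of genes with few counts. Exact Clopper-Pearson 95% intervals cover counting error only, and no variation of fish, tanks or library preparation. They take each read as independent, which PCR copies are not, so they can be too narrow even for counting error. With 1 library per salinity no model with replicates could be fitted, and EB-Seq, used by the authors, was not installed.

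The 9 genes, the lists and the tests were chosen with earlier results of these data known. Genes are named by a rule: the 9 genes, and from each list up to 6 loci past 2-fold that reached 100 counts and the locus with most counts. Other genes named, the macrophage list and the search for genes counted in 1 library alone were chosen after values were seen. List genes were matched by symbol, with or without copy letters. The gene table (RefSeq, assembly O_niloticus_UMD_NMBU) held 23652 of 27855 locus numbers and a symbol for 13937, so unmatched loci are not described. 1 locus that the rule names is not reported here. The gene table is of another assembly than the counts and gives no transcript lengths, so no coordinates or sequences are printed. Where levels or reads of different genes stand side by side, they are not corrected for transcript length. Of the markers not given elsewhere, the erythrocyte loci summed to 162, 183 and 152 CPM and the adipocyte loci to 132, 121 and 122 CPM at 0, 8 and 16 psu.

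Alternatives were other scalings (DESeq2 1.42.0 size factors, upper quartile, total counts), count minimums, added CPM, fold limits and an exact binomial test on the reads.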

Additional observations from a re-analysis of the deposited data

How the results depend on the processing

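With 1 library per salinity, no library could be left out. No paired analysis was possible because each salinity has 1 library. Over all scalings and added CPM tried, the 9 genes kept their sign in 25 of 27 comparisons, the other 2 being acsl5 and fabp2 at 16 psu against 8 psu, with 0 reads. For the 7 genes with reads in every library, 6 of 105 recomputed values left their counting interval, all with total counts: rxrgb (-1.66 at 16 psu against 0 psu), apoa4b (-2.57 at 8 psu and -2.71 at 16 psu against 0 psu), apoba (-0.51 and -0.60) and LOC100697805 (0.70 at 16 psu against 0 psu). At 0 counts the added CPM set the value: acsl5 lay between -5.96 and -2.02 and fabp2 between -4.15 and -0.88.

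Of the 9 genes, 6 were past 2-fold at 8 psu against 0 psu, 6 at 16 psu against 0 psu and 1 at 16 psu against 8 psu. A fold limit of 4 left 3, 3 and 0 in the same order, and an added 2 CPM left 5, 5 and 0. A minimum of 100 counts left 4, 4 and 1, since acsl5 and fabp2 were then left out. The exact binomial test on the reads, which compares libraries and not salinities, took away none. Of all genes, 1630, 1834 and 941 were past 2-fold in these comparisons. A minimum of 100 counts gave 585, 731 and 290, but of 8291 genes kept in place of 16573. An added 0.1 CPM gave 2659, 2788 and 1708 and an added 2 CPM gave 543, 734 and 282. Fold limits of 1.5 and 4 gave 4775, 5013 and 3171, and 140, 213 and 119. Among the 9 genes, no value past 2-fold changed direction under an alternative. Scaling shifts were too small to turn such a value and an added CPM keeps the sign, so this was no test.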
